A study of Homo sapiens with 6 samples.

Results

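A set of 10 Notch pathway genes was followed in H146 cells, an established small-cell lung cancer (SCLC) cell line: the receptors *NOTCH1*, *NOTCH2* and *NOTCH3*, the ligands *DLL1*, *DLL3*, *DLK1*, *JAG1* and *JAG2*, and the HES genes *HES1* and *HES6*. They are among the 28395 genes in the count table and were chosen by name, with earlier results of these data known. Of the 10, 8 had enough counts to be tested and *NOTCH2* and *DLL1* did not. RNA was sequenced from cells transfected with a negative control siRNA (3 libraries) or with 1 KIFC1 siRNA (3 libraries) and collected on day 2, which was 48 hours after transfection. Both groups came from the same line and both had been transfected. A single siRNA against *KIFC1*, which encodes a kinesin motor that clusters extra centrosomes, was sequenced in a single cell line. The labels call the libraries biological replicates without saying that they came from separate experiments, and p-values measure the spread between these libraries only.

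Notch receptors sit at the cell surface and bind Delta or Jagged ligands on a neighbouring cell. Binding lets the protease ADAM10 and then gamma-secretase cut the receptor, and the released intracellular domain joins the DNA-binding protein RBPJ and switches on genes such as *HES1*, a repressor of neural and neuroendocrine transcription factors. Neuroendocrine SCLC cells are known for high DLL3, an inhibitory ligand that is held largely inside normal cells and is a drug target in SCLC, and for expressing *HES6*, a HES relative that counteracts HES1.

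The libraries held 15392374 to 17754458 counts, and mitochondrial genes took 8.34% to 13.1% of them. KIFC1 siRNA replicate 3 stood apart from the other knockdown libraries in several genes, and calls that change without it are given both ways. The targeted gene *KIFC1* (NCBI gene ID 3833, chromosome 6, 33391461 to 33409896) was counted 14, 4 and 14 times in control siRNA libraries and 1, 1 and 0 times in KIFC1 siRNA libraries. The knockdown counts lay under the floor of 3 counts per library (0.198 CPM), and the control mean of 0.618 CPM was 3.13 times that floor. Control siRNA replicate 2, at 0.25 CPM, lay only a little above it, so the size of the drop is uncertain. In edgeR (quasi-likelihood test, p adjusted by Benjamini and Hochberg over all tested genes) the adjusted p was 0.0739, and it was 0.00459 when the replicate number entered as a block. Every 32-base word of the *KIFC1* exons (100%) has another copy on the alternate sequences of GRCh38. If the genome index used for alignment held those sequences, *KIFC1* counts depend on how reads with several matches were treated. The methods state neither point, so the *KIFC1* level is uncertain. The cells expressed *INSM1*, a neuroendocrine transcription factor, at 10009 to 12809 counts per library. *NEUROD1*, a factor that marks a subset of neuroendocrine SCLC, had 0 to 5 counts. Of the non-neuroendocrine factors named here, *POU2F3* had 0 to 3 counts, *YAP1* 0 to 7 and *REST* 1 to 11, the last of these a repressor of neuronal genes that Notch is known to induce in SCLC. Other genes of the same marker list were expressed, with 3862 to 4365 counts for *MYC*, 547 to 791 for *SOX9* and 153 to 202 for *CD44*.

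The members covered a wide range of levels in control siRNA cells. To compare genes with each other, counts were scaled by library size with edgeR's TMM method (CPM) and divided by the length of all annotated exons. *HES6* had by far the highest level at 160 ± 10.2 CPM per kb (SD, n = 3), above 99.3% of the 14325 tested genes with a known length. The ligands came next, with *DLL3* at 23.1 ± 0.768, *DLK1* at 18.2 ± 0.967, *JAG2* at 13.3 ± 0.702 and *JAG1* at 9.28 ± 1.74 CPM per kb (SD, n = 3). *DLL3* stood above 87.1% of tested genes and *JAG1* above 66.9%. *HES1* was at 1.59 ± 0.162 CPM per kb and the receptors followed, *NOTCH1* at 1.23 ± 0.223 and *NOTCH3* at 0.702 ± 0.124 (SD, n = 3). *NOTCH1* exceeded only 22.3% of tested genes and *NOTCH3* 15.6%. At the bottom, *DLL1* was at 0.00999 ± 0.00868 and *NOTCH2* at 0.00928 ± 0.00532 CPM per kb (SD, n = 3), from no more than 4 counts in a library. The control libraries of neighbours in this order did not overlap, except for *DLL1* and *NOTCH2*, whose order cannot be read. The place of *JAG2* above *JAG1* rested on gene length: divided by the longest transcript in place of all exons, the levels were 14.8 and 14.5 CPM per kb.

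**Figure D1:**
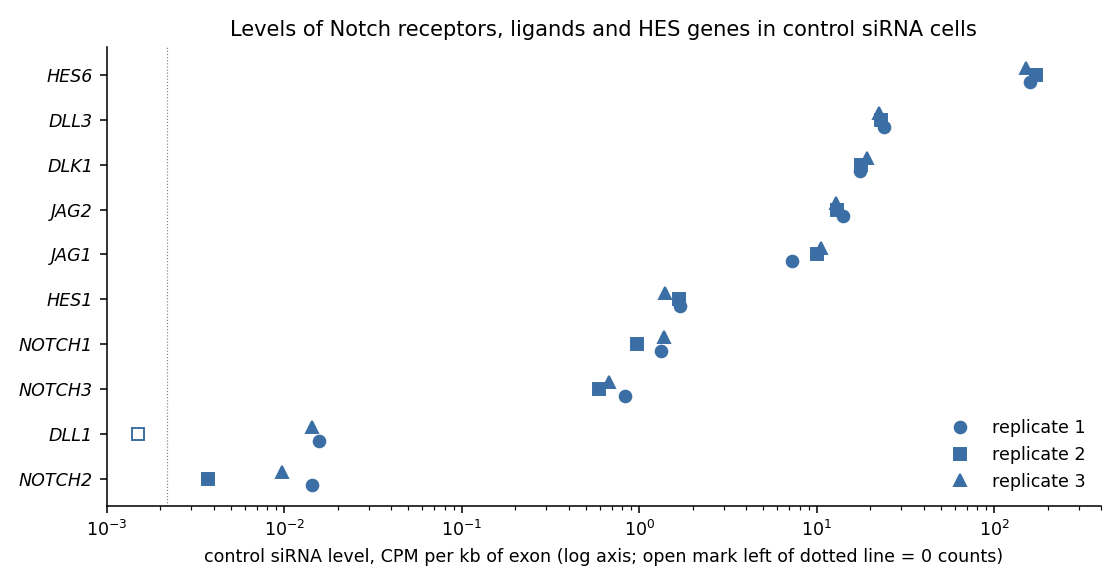
Level of each member in the 3 control siRNA libraries, in CPM per kb of exon on a log axis; each mark is 1 library, and the open mark left of the dotted line is a library with 0 counts. *HES6* stands at 160 CPM per kb, the ligands *DLL3*, *DLK1*, *JAG2* and *JAG1* lie between 7.29 and 23.9 in single libraries, and *HES1*, *NOTCH1* and *NOTCH3* lie below 1.7.

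No receptor passed the test after KIFC1 knockdown. *NOTCH1* (NCBI gene ID 4851, chromosome 9, 136494433 to 136546048) had 16.7, 12.1 and 17.2 CPM with control siRNA and 17.4, 9.75 and 13.4 CPM with KIFC1 siRNA. The highest and the lowest of the 6 values were both KIFC1 siRNA libraries, so the groups overlapped. The fitted log2 fold change was -0.19 (SE 0.21, 95% interval -0.64 to 0.27), and edgeR gave an adjusted p of 0.881. *NOTCH3* (NCBI gene ID 4854, chromosome 19, 15159038 to 15200995), a receptor that is widely expressed in vascular smooth muscle, had 7.86, 5.57 and 6.37 CPM with control siRNA and 6.83, 5.86 and 4.47 CPM with KIFC1 siRNA. The groups overlapped again, although the lowest library was a knockdown library. For *NOTCH3* the log2 fold change was -0.21 (SE 0.21, 95% interval -0.67 to 0.26), with an adjusted p of 0.869 in edgeR. For *NOTCH2* (NCBI gene ID 4853, chromosome 1, 119911553 to 120069662) the control siRNA libraries held 4, 1 and 3 counts and the KIFC1 siRNA libraries 2, 0 and 2, too few to test. Of its 32-base exon words, 6.27% are shared with its partial copies, the *NOTCH2NL* genes, 3 of which had at most 2 counts in any library. In RNA from whole cultures, a lower level in each cell and fewer cells that express a gene cannot be told apart.

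The ligands did not pass the test either, with estimates on both sides of 0. *DLL3* (NCBI gene ID 10683, chromosome 19, 39498947 to 39508469) had 62.6, 60.3 and 58.6 CPM with control siRNA and 78.3, 86.3 and 53.4 CPM with KIFC1 siRNA. The first and second knockdown libraries stood above every control library, and the third stood below every control library. The change of *DLL3* was 0.26 on the log2 scale (SE 0.16, 95% interval -0.08 to 0.60), with an adjusted p of 0.693 in edgeR. Without KIFC1 siRNA replicate 3, the log2 fold change of *DLL3* was 0.44 (SE 0.09) and its adjusted p 0.019 in the same edgeR test. *DLK1* (NCBI gene ID 8788, chromosome 14, 100726892 to 100738224), an imprinted noncanonical ligand that lacks the DSL domain of the Delta ligands, had 92.2, 93.1 and 101 CPM with control siRNA and 91.9, 94.1 and 77.6 CPM with KIFC1 siRNA. Only the third knockdown library stood apart, below the rest. The log2 fold change of *DLK1* was -0.12 (SE 0.11, 95% interval -0.36 to 0.12), with an adjusted p of 0.84 in edgeR. *MEG3*, the noncoding RNA made from the other parental copy of the *DLK1* region, had 0 to 2 counts, and *DIO3* had 0 counts in every library.

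*JAG1* (NCBI gene ID 182, chromosome 20, 10637684 to 10673999), a ligand that activates Notch, had 67.8, 93.5 and 97.7 CPM with control siRNA and 61.3, 77.1 and 86.5 CPM with KIFC1 siRNA. The groups overlapped, but within each replicate number the knockdown library was the lower one, by -0.14, -0.28 and -0.18 on the log2 scale. *JAG1* was the only tested member with the same direction in all 3 pairs. The share of all tested genes with such a pattern was not counted, so this does not set *JAG1* apart. The change of *JAG1* was -0.20 on the log2 scale (SE 0.16, 95% interval -0.55 to 0.14), with an adjusted p of 0.797 in edgeR, and with the replicate block the adjusted p was 0.224. *JAG2* (NCBI gene ID 3714, chromosome 14, 105140995 to 105168776), the second Jagged ligand, had 90.5, 83.5 and 82.2 CPM with control siRNA and 101, 92.8 and 65.8 CPM with KIFC1 siRNA. As for *DLL3*, the knockdown libraries lay on both sides of the controls. Its fitted log2 fold change was 0.02 (SE 0.15, 95% interval -0.30 to 0.34), with an adjusted p of 0.989 in edgeR, and its sign depended on the fit. *DLL1* (NCBI gene ID 28514, chromosome 6, 170282206 to 170291078), the Delta ligand best known from neural progenitors, was counted 1, 0 and 1 times in control libraries and 0, 0 and 2 times in knockdown libraries, none above the floor of 3 counts. All 32-base words of its exons (100%) likewise have a copy on an alternate sequence, so this level is uncertain for the same reason as that of *KIFC1*. For the other members this share was 0%.

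**Figure D2:**
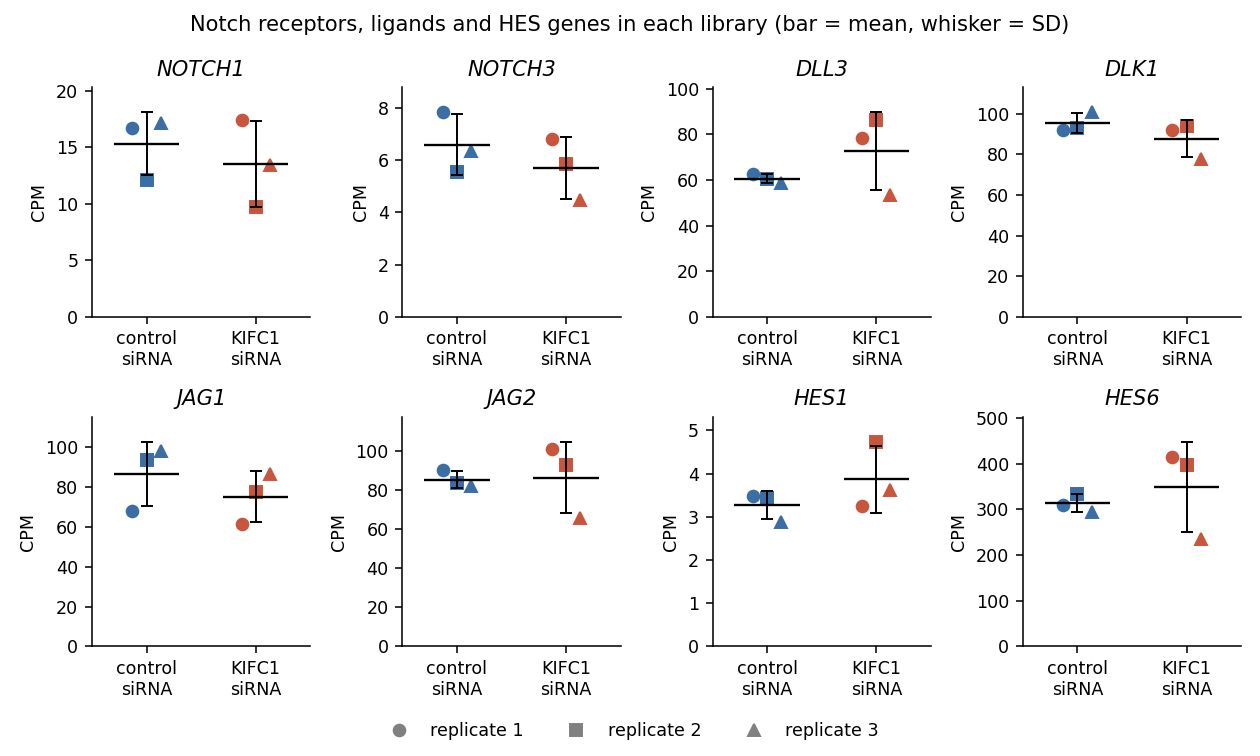
TMM-scaled CPM of the 8 tested members in each library, on axes that start at 0; bars are means, whiskers SD (n = 3), and the mark shape gives the replicate number. The groups overlap for all 8 genes, and in *NOTCH3*, *DLL3*, *DLK1*, *JAG2* and *HES6* KIFC1 siRNA replicate 3 is the lowest of the 6 libraries.

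*HES1* (NCBI gene ID 3280, chromosome 3, 194136148 to 194138732) is the best known direct target of Notch, through RBPJ sites in its promoter. In the 300 bases from 250 before to 50 after each RefSeq gene start (GRCh38.p14), the RBPJ core motif GTGGGAA, searched on both strands, occurred in 6.1% of 18304 promoters of genes in the table and in 5.71% of the 11549 promoters of tested genes. Of the 7 members with a promoter sequence to search, 1 held it. The *HES1* copy is shown with 1 copy each of *HES4* and *HES5*, other HES genes, at a similar distance from the start, with the motif in capitals and each sequence read 5′ to 3′ on the gene's own strand. A second *HES5* copy, on the opposite strand at -224, is not shown. The windows are chr3:194136054-194136078 on the plus strand for *HES1*, chr1:1000159-1000183 on the minus strand for *HES4* and chr1:2530329-2530353 on the minus strand for *HES5*, and the motif begins at -85, -77 and -81 from the start, upstream of the first exon. A match describes the sequence and does not show that RBPJ was bound.
HES1: aaagttactGTGGGAAagaaagttt
HES4: ggggcgagtGTGGGAAagaatgcgg
HES5: ccgcggagtGTGGGAAcggccgcgg

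Neither HES gene passed the test. *HES1* was counted 58, 55 and 53 times in control libraries and 51, 72 and 59 times in knockdown libraries, which is 3.48, 3.44 and 2.89 CPM against 3.26, 4.74 and 3.61 CPM. Knockdown libraries 2 and 3 stood above all controls and library 1 lay among them. The log2 fold change of *HES1* was 0.24 (SE 0.23, 95% interval -0.25 to 0.74), with an adjusted p of 0.844 in edgeR. The interval therefore reached from a fold of 0.841 to one of 1.67, the widest among the 8 tested members, and a change within it was not detectable at these counts. *HES6* (NCBI gene ID 55502, chromosome 2, 238238267 to 238240038) had 310, 334 and 295 CPM with control siRNA and 415, 398 and 236 CPM with KIFC1 siRNA. The pattern of *DLL3* recurred, with the first and second knockdown libraries above and the third below every control library. Its log2 fold change was 0.16 (SE 0.17, 95% interval -0.22 to 0.54), with an adjusted p of 0.879 in edgeR. Without KIFC1 siRNA replicate 3, it was 0.38 (SE 0.10) with an adjusted p of 0.0466 in the same edgeR test. For *HES4* there were 157, 164 and 185 counts in control libraries and 219, 197 and 128 counts in knockdown libraries, again on both sides of the controls, while *HES5* had 0 counts in every library, with 100% of its words also on alternate sequences.

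Across the members, 0 of 8 tested genes had an adjusted p under 0.05 in edgeR, 0 had an unadjusted p under 0.05, and DESeq2's Wald test and limma-voom also called 0. Over all 14777 genes tested, 0.697% were called in either direction, so a count of 0 among 8 genes is near the background. With the replicate number as a block, 5.83% of all genes were called and again 0 of the 8 members. The groups overlapped for all 8 members. Of all tested genes, 15.5% had groups that did not overlap, a share at which 0 among 8 genes is not unusual. The median log2 fold change was -0.05 over the members, with 4 positive and 4 negative, and 0.01 over all tested genes. These values do not show that the members were unaffected: the 95% intervals reached as low as -0.67 (*NOTCH3*) and as high as 0.74 (*HES1*).

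The spread of several members came with KIFC1 siRNA replicate 3. This library was the lowest of the 6 libraries in 5 of the 8 tested members, as it was for 25.4% of all tested genes. Without it, 2 members were called, *DLL3* and *HES6*, both higher. Of all 14958 genes tested in that fit, 194 were higher and 274 lower, against 48 and 55 of 14777 with all 6 libraries. Because this library was the lowest of the 6 in *DLL3* and *HES6*, leaving it out raises both estimates in itself. These 2 calls are therefore not independent evidence of a rise. Without any other single library, 0 members were called. Its depth of 16452875 counts lay above those of the other KIFC1 siRNA libraries (15593597 and 15392374) and within the range of all libraries. Its mitochondrial share was 9.2%, against 8.34% and 13.1%, and its *KIFC1* count was 0, against 1 in each. Which property of the library goes with its lower *DLL3* and *HES6* was not tested.

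**Figure D3:**
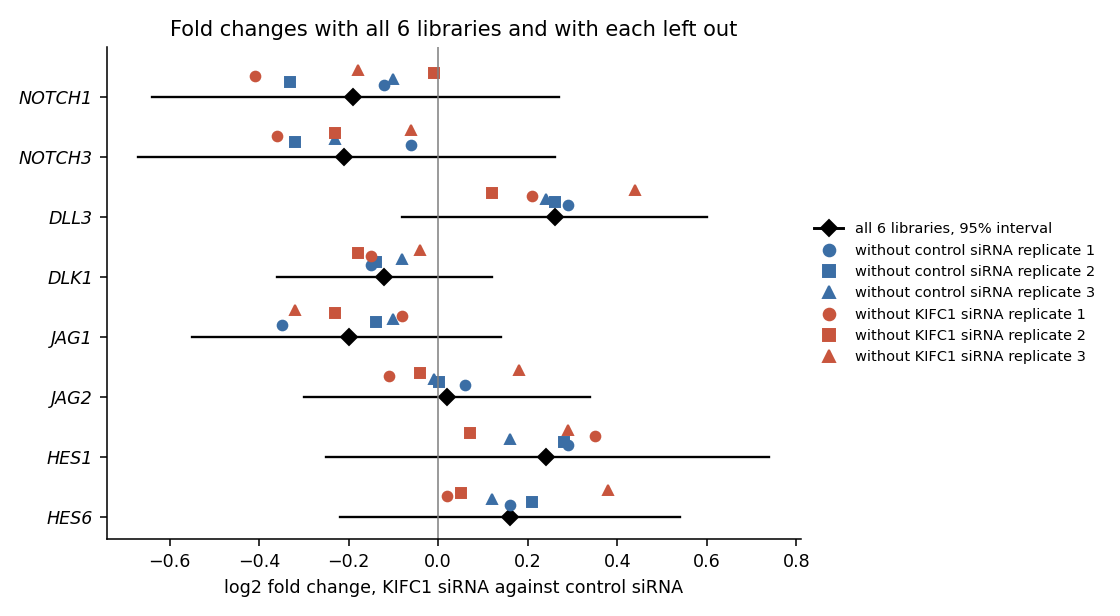
Log2 fold change (KIFC1 siRNA against control siRNA) of the 8 tested members; diamonds and bars give the estimate and 95% interval from all 6 libraries, and coloured marks the estimate with 1 library left out. Without KIFC1 siRNA replicate 3 (red triangles), *DLL3* is at 0.44 and *HES6* at 0.38, farther from 0 than with any other library left out.

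The balance between groups of members was also compared. In each library, the summed level per kb of the 5 ligands was divided by that of the 3 receptors. The ligand to receptor ratio was 28.8, 40.8 and 31.6 with control siRNA and 32.9, 52.6 and 35.3 with KIFC1 siRNA, so ligand RNA exceeded receptor RNA in every library and the groups overlapped. Within each replicate number the knockdown library had the higher ratio, by 0.19, 0.37 and 0.16 on the log2 scale, and a paired exact test of 3 pairs cannot go below 0.25. The difference in its mean log2 was 0.24 (0.26 SD among control and 0.37 SD among knockdown libraries), with p = 0.5 in a two-sided exact permutation test, which cannot go below 0.1 with 3 against 3. The ratio of *HES6* to *HES1* per kb was 93.8, 102 and 108 with control siRNA and 134, 88.5 and 69 with KIFC1 siRNA, with knockdown libraries on both sides of the controls. Its log2 difference was -0.11, with p = 0.7 in the same exact permutation test, and it was 0.11 without KIFC1 siRNA replicate 3. Within the ligand sum, *DLL3* made up 36.1% ± 1.8 with control siRNA and 41.6% ± 3.92 with KIFC1 siRNA (SD, n = 3), and *DLK1* 28.5% ± 1.07 and 25.5% ± 1.37. Within the receptor sum, *NOTCH1* made up 63.2% ± 2.99 and 63.3% ± 6.94 (SD, n = 3).

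The other genes of the pathway were described from 7 lists with 84 genes, of which 82 were in the table used and 66 were tested. One gene rose, *HDAC1*, and 1 fell, *ADAM10*; with the replicate block, 4 rose and 2 fell. Over all tested genes 0.697% were called without the block and 5.83% with it. The median log2 fold change of the 66 was 0.02. An unadjusted p under 0.05 was found for 7, against 9.26% of all tested genes, and 11 had groups that did not overlap, against 15.5%. ADAM10 makes the first cut in a ligand-bound receptor. *ADAM10* (NCBI gene ID 102, chromosome 15, 58588809 to 58749707) had 71.4, 71 and 80.2 CPM with control siRNA and 33.3, 30 and 39.8 CPM with KIFC1 siRNA, with every knockdown library below every control library. Its log2 fold change was -1.11 (SE 0.13, 95% interval -1.39 to -0.83), with an adjusted p of 0.00382 in edgeR, and it stayed between -1.23 and -1.03 with each library left out, with adjusted p up to 0.0375. The other 7 genes of the cleavage list, among them *ADAM17* and the gamma-secretase subunits, were not called. *APH1A*, the subunit gene with the highest level per kb, had a log2 fold change of -0.03 (SE 0.14), which was 0.12 without KIFC1 siRNA replicate 3.

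*HDAC1*, a histone deacetylase found in the corepressor complexes that RBPJ recruits without Notch, rose from 104, 89 and 91 CPM to 160, 143 and 135 CPM. The groups did not overlap, and the log2 fold change was 0.63 (SE 0.11) with an adjusted p of 0.0272 in edgeR. Leaving out any library other than KIFC1 siRNA replicate 3 ended this call, with adjusted p up to 0.198 and log2 fold changes from 0.56 to 0.70 over the 6 fits. Of the 23 tested genes of the transcription complex and corepressor list, *HDAC1* alone was called. *TLE5*, a short Groucho relative and the gene of that list with the highest level per kb, had a log2 fold change of 0.03 (SE 0.13). *MAML2*, which encodes a coactivator of the Notch complex, had at most 1 count.

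Another 4 genes were not called by edgeR on all 6 libraries and were called with the replicate block. *DLL4*, a Delta ligand known from vessel sprouting, had 8.64, 10.7 and 10.5 CPM with control siRNA and 15.6, 19.8 and 12.9 CPM with KIFC1 siRNA, so its groups did not overlap. On the log2 scale *DLL4* differed by 0.69 (SE 0.18), with an adjusted p of 0.13 in edgeR, 0.00216 with the replicate block and 0.0329 in DESeq2's Wald test. Without KIFC1 siRNA replicate 3 it was 0.83 (SE 0.16), with an adjusted p of 0.00987 in edgeR. *DLL4* stood at 2.09 ± 0.24 CPM per kb (SD, n = 3) in control cells, below *DLL3*, *DLK1*, *JAG1* and *JAG2*. *NRARP*, a Notch target that feeds back on the intracellular domain, had 16.3, 15.6 and 12.9 CPM and then 22.7, 25 and 17.1 CPM. The estimate for *NRARP* was a log2 fold change of 0.54 (SE 0.16), with adjusted p of 0.236 in edgeR and 0.00483 with the replicate block. Without KIFC1 siRNA replicate 3 it was 0.68 (SE 0.14), with an adjusted p of 0.0126 in edgeR. *NEURL1B*, a ubiquitin ligase that acts on Notch ligands, had 34.2, 39.6 and 43.9 CPM and then 28.6, 29.4 and 27.3 CPM. The estimate for *NEURL1B* was a log2 fold change of -0.47 (SE 0.12), with adjusted p of 0.143 in edgeR and 0.00574 with the replicate block. *DTX2*, a Deltex ubiquitin ligase, had a log2 fold change of 0.40 (SE 0.14), with adjusted p of 0.367 in edgeR and 0.0493 with the replicate block. Of its words, 39.3% are also on alternate sequences, so its counts are uncertain in the same way as those of *KIFC1*.

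**Figure D4:**
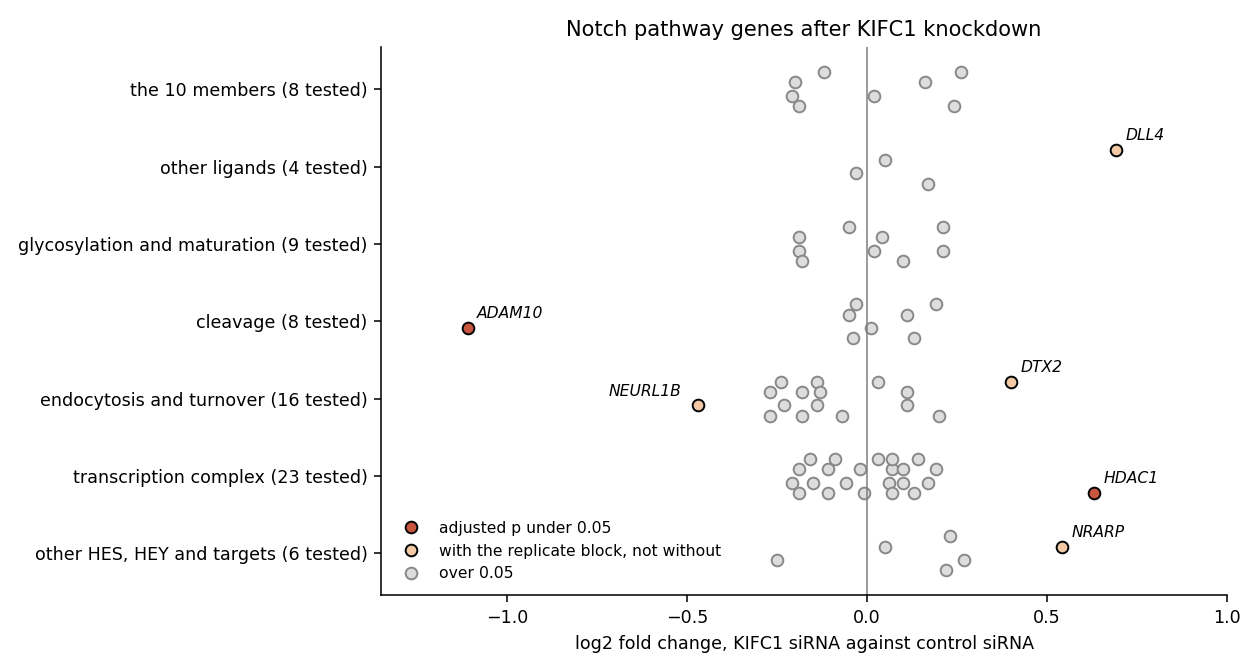
Log2 fold changes (KIFC1 siRNA against control siRNA) of the 8 tested members and 66 other tested pathway genes, by list; each point is 1 gene, and fill shows whether edgeR's adjusted p was under 0.05. *ADAM10* (-1.11) and *HDAC1* (0.63) were called, *DLL4*, *NRARP*, *NEURL1B* and *DTX2* passed with the replicate block and not without it in the fit of all 6 libraries, and the members lie between -0.21 and 0.26.

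In the remaining lists, no further gene passed the test. *DNER*, a noncanonical neuronal ligand and the ligand-like gene with the highest level per kb at 57.5 ± 4.18 (SD, n = 3), had a log2 fold change of 0.05 (SE 0.10). *POFUT1*, which adds the O-fucose that Notch needs, had -0.18 (SE 0.11), and *LFNG*, a Fringe enzyme that extends it, had 0.21 (SE 0.18). *MIB1*, the main ubiquitin ligase of Notch ligands, had -0.23 (SE 0.15). Among the other HES and HEY genes, *HEY2* had the highest mean level per kb at 9.32 ± 1.6 (SD, n = 3), above that of *HES1*. Its control libraries overlapped those of *HES4* at 8.87 ± 0.396 (SD, n = 3), so the order of these genes cannot be read. The log2 fold change of *HEY2* was 0.27 (SE 0.15). *NOTCH4*, the remaining receptor, had 0 counts in every library, with 99.4% of its words also on alternate sequences.

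**Figure D5:**
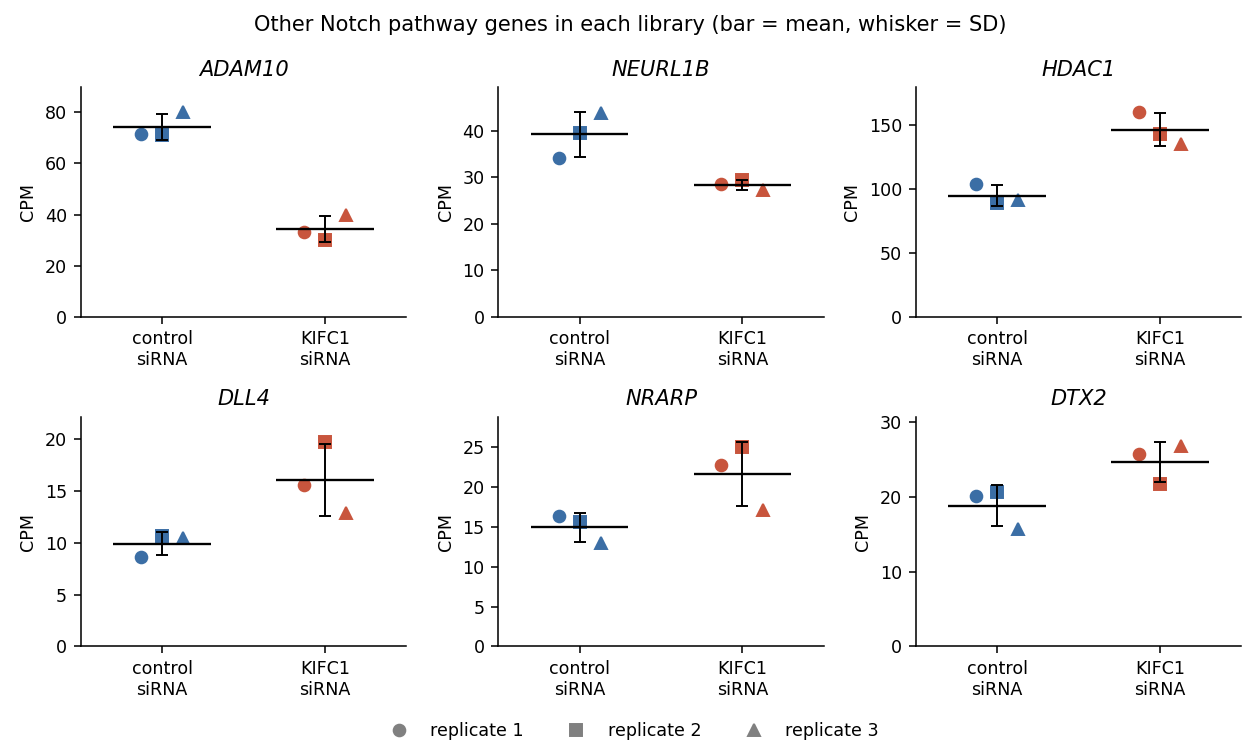
TMM-scaled CPM in each library of the 6 other pathway genes called in edgeR without or with the replicate block, on axes that start at 0; bars are means and whiskers SD (n = 3). The groups do not overlap in any of the 6 genes, which were picked by their calls, against 15.5% of all tested genes. *ADAM10* goes from 74.2 to 34.4 CPM on average.

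Marker genes were set beside these values. The summed level of 12 neuroendocrine markers was 3713 to 4176 CPM with control siRNA and 3957 to 4522 CPM with KIFC1 siRNA. Of these markers 11 were tested and 0 were called in edgeR, against 0.697% of all tested genes. With the replicate block 1 was higher and 1 lower, against 5.83%. An unadjusted p under 0.05 was found for 5, against 9.26%, and 6 had groups that did not overlap, against 15.5%. Their log2 fold changes were positive in 8 and negative in 3, with a median of 0.12. The largest was 2.00 (SE 0.66) for *CHGA*, at 8.82, 6.51 and 7.73 CPM and then 9.26, 53.9 and 29.5 CPM. The adjusted p of *CHGA* was 0.436 in edgeR, and 100% of its words are also on alternate sequences. Among the markers with a negative estimate, *NCAM1*, a surface adhesion protein, had a log2 fold change of -0.42 (SE 0.11). Its adjusted p was 0.137 in edgeR and 0.000646 with the replicate block. Without KIFC1 siRNA replicate 3, the change of *NCAM1* was -0.48 (SE 0.10) with an adjusted p of 0.0198 in edgeR. The summed level of 10 non-neuroendocrine markers was 277 to 297 CPM with control siRNA and 312 to 349 CPM with KIFC1 siRNA, with *POU2F3* and *ANXA1* at the floor. *MYC*, which many other cells also express, made up most of this sum, at 232, 248 and 233 CPM with control siRNA and 262, 287 and 250 CPM with KIFC1 siRNA. For 12 markers of other cell types the sums were 23.2 to 24.8 and 22.2 to 30 CPM, with *CD3E*, *DCN*, *SFTPC* and *HBB* at the floor. The part of these shifts in the Notch values was not tested.

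Short words in 3′ UTRs were counted because an earlier scan of these same libraries had related GAGATCT to lower and GCAACC to higher fold changes, so the counts here are a description and not independent evidence. Among 12970 tested genes with a GENCODE 44 3′ UTR of at least 50 bases, 8.97% held GAGATCT and 23.2% held GCAACC. None of the 10 members held either word. The *ADAM10* 3′ UTR held 1 copy of GAGATCT, as did 33.3% of the 336 genes with a 3′ UTR of like length (within 1.25-fold), and that of *NEURL1B* held 1 copy of each word, as 20% (GAGATCT) and 52% (GCAACC) of genes of like length do at least once. The *HDAC1* 3′ UTR held 1 copy of GCAACC, as did 7.28% of genes of like length, and that of *NRARP* held 1 copy, as did 26.2%, while those of *DLL4* and *DTX2* held neither. Tested pathway genes that were not called held the words too. GAGATCT was in *AAK1*, *EPN2*, *MIB1* and *HDAC2*, with log2 fold changes of -0.18, -0.14, -0.23 and 0.06. GCAACC was in genes on both sides of 0, among them *DTX4* (-0.27) and *MAML1* (0.19). The sites below were chosen by the calls, so they do not relate a word to a direction. The *KIFC1* mRNA also holds GAGATCT once, outside its 3′ UTR. These sites are shown for the 2 genes called without the block and for *NEURL1B*, *NRARP* and *KIFC1*, 5′ to 3′ on the gene's strand in GRCh38, with the word in capitals. They lie at chr15:58595544-58595568 (minus strand) for *ADAM10*, chr5:172689898-172689922 (plus) for *NEURL1B*, chr6:33405473-33405497 (plus) for *KIFC1*, chr1:32333297-32333320 (plus) for *HDAC1* and chr9:137301267-137301290 (minus) for *NRARP*. For *NEURL1B*, which had a negative estimate, only the GAGATCT copy is shown. Its GCAACC copy lies at chr5:172686979-172687002 (plus).
ADAM10: aagacaaatGAGATCTaatactact
NEURL1B: gaggtctgaGAGATCTggactccaa
KIFC1: agctacgtaGAGATCTacaatgaga
HDAC1: tacttttatGCAACCataagacaa
NRARP: ttgagtctcGCAACCagcaagttc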

How the data were processed

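H146 cells were profiled by RNA sequencing, with 3 control siRNA and 3 KIFC1 siRNA libraries grouped by the treatment label. The authors aligned reads to GRCh38 with HISAT2 2.2.1, counted them with featureCounts 2.0.8 and deposited whole counts for 28395 NCBI gene IDs, without normalization. Annotation, strand setting, the handling of multiply aligned reads and whether the genome index held alternate sequences are not given in the sources used here. Symbols came from RefSeq (GRCh38.p14) for 27745 IDs, and the 650 others held 0.0618% of counts. Exon lengths, transcripts and 3′ UTRs came from GENCODE 44.

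Differences were tested by the quasi-likelihood method of edgeR 4.0.16 (R 4.3.3), after filterByExpr and TMM scaling and with a robust fit. The p-values of the 14777 genes, *KIFC1* included whatever the filter, were adjusted by Benjamini and Hochberg, with a threshold of 0.05. SE is the absolute log2 fold change over the square root of F. Ratios were compared by a two-sided exact permutation test. Alternatives were DESeq2 1.42.0, limma-voom (limma 3.58.1), the size factors of DESeq2, no TMM scaling, all genes unfiltered, a minimum of 10 counts per library, the replicate block, each library left out and, for levels, the longest transcript. Tables used pandas 2.3.3, numpy 2.4.6 and scipy 1.17.1 under Python 3.11.15, and figures matplotlib 3.10.9. The edgeR fit was tested on simulated data with 200 genes changed. It recovered 26.5% of them at a log2 change of 0.5 and 89% at 1.0, with 6 and 11 false calls, and made 2 false calls with no gene changed. Changes of 0.5 or less would thus mostly be missed. Floors (3 counts per library) cover counting error only.

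After removal of group means, libraries with the same replicate number correlated at 0.436, 0.352 and 0.42 across 12897 genes, and those with different numbers at -0.375 to -0.0463. The numbers were therefore taken as pairs, from the data and not from the labels. With group means of 3 libraries removed, positive correlations within numbers force negative ones on average between numbers, so this contrast is partly built in. With 3 libraries per group few other pairings exist, and such a match can arise by chance. The pairing, and the replicate-block results that rest on it, are therefore uncertain. Genes are not independent replicates.

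The members and lists were chosen with earlier results of these data known. Named were the members, *KIFC1*, every other listed gene called without or with the block, the gene of highest level per kb and of largest change in each other pathway list, and 6 marker genes, 1 of which is not reported here; other genes were named after their values were seen. *NOTCH2NLC* and *CIR1* were not analysed here.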

Additional observations from a re-analysis of the deposited data

How the results depend on the processing

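Of 104 member fold changes recomputed under the alternatives, 99 kept the sign of the fit with all 6 libraries and 2 had an adjusted p under 0.05, those of *DLL3* and *HES6* without KIFC1 siRNA replicate 3. The 5 with the other sign were all of *JAG2*, at -0.0046 in limma-voom, -0.0019 with the replicate block and from -0.11 to 0.18 with each library left out. The number of members called ran from 0 to 2 and that of other pathway genes from 1 to 4 with each library left out, and the latter was 6 with the replicate block. Signs also turned with a library left out for *APH1A* (-0.12 to 0.12), *TLE5* (-0.05 to 0.17) and the log2 difference in the *HES6* to *HES1* ratio (-0.37 to 0.11, positive without KIFC1 siRNA replicate 3). For *KIFC1* the log2 fold change was -3.14 in limma-voom, -3.66 without a filter and -3.65 with the replicate block, each past the threshold of 0.05. Over all genes, 123 were higher and 140 lower in DESeq2, 121 and 144 without a filter, and 407 and 454 with the replicate block, against 48 and 55 in the fit with all 6 libraries. With each library left out the counts ran from 9 to 194 higher and from 15 to 274 lower. The cause of these shifts was not tested. *NOTCH2* and *DLL1* had too few counts to test, and *HES1*, with 51 to 72 counts, had the widest interval of the tested members.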
